A study of Homo sapiens with 8 samples.

Results

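CXCL10, a chemokine that draws T cells and NK cells to sites of inflammation, lost most of its transcripts in JJN3 cells exposed to THZ1, and it was read here together with 41 other genes that interferon is known to induce. These 42 interferon-stimulated genes were taken from a list of symbols, and each matched 1 of the 63677 genes counted. They were chosen by name, with the THZ1 against DMSO results of these libraries, the fall of CXCL10 among them, already known, so the values of the list between THZ1 and DMSO are a description, and no p is given for CXCL10 in those comparisons.

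Messenger RNA was sequenced from 2 human multiple myeloma (MM) cell lines, JJN3 and H929, which grow from malignant plasma cells. The cells received THZ1, a covalent inhibitor of the transcription kinase CDK7, at 50 nM for 24 h, or the vehicle DMSO. There were 2 libraries in each of 4 groups (JJN3 DMSO, JJN3 THZ1, H929 DMSO and H929 THZ1), 8 in all. The labels do not say that the replicates were separate cultures, so the p-values measure only the spread between these libraries. No genetic change was made in any group, and each line is 1 established culture with no normal plasma cells beside it.

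Interferons are cytokines that cells secrete on sensing viral or misplaced nucleic acid. Type I interferons act through the kinases JAK1 and TYK2 and a complex that holds STAT2 and IRF9 and binds a DNA element called ISRE, whereas interferon gamma acts through an element called GAS. The induced genes include antiviral enzymes, restriction factors at membranes, sensors of RNA, parts of the pathway itself and chemokines such as CXCL10, and many MM lines keep some of them active without added interferon.

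The ISRE was looked for in the promoters of the list, because it is the element that interferon-induced genes are known to share. RefSeq promoter windows (GRCh38.p14, from 250 bases before to 50 bases after a start site, the first window listed for each gene) were matched for 33 of the 42 genes. No window was matched for IFIT2, OAS2, OASL, MX2, IFITM2, USP18, IRF7, TMEM173 and TRIM22. The core, GAAA followed by any 2 bases and GAAA again, searched on both strands, was present in 24 of the 33 windows (72.7%) and in 996 of the 27305 windows of all genes (3.65%). The GAS letters TTCNNNGAA were present in 9 of 33 (27.3%) against 7.88% of all windows, and the NF-kB consensus in 7 of 33 (21.2%) against 5.72%. The windows of 5 genes that the results turn on are printed below, read along the strand of the gene, with matches to the ISRE core, on either strand, in capitals.
CXCL10, chr4:76023448-76023747, minus strand: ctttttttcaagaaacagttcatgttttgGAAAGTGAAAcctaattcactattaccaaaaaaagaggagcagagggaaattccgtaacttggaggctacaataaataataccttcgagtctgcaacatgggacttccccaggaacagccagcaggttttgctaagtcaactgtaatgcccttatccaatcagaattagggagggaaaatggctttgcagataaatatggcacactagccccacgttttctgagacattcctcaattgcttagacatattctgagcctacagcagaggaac
SAMD9L, chr7:93148336-93148635, minus strand: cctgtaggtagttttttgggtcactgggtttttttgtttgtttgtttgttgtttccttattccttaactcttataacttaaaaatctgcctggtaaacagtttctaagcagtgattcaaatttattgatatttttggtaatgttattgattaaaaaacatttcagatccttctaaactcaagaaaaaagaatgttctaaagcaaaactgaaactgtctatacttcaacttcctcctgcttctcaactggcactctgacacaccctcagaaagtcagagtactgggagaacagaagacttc
SAMD9, chr7:93117930-93118229, minus strand: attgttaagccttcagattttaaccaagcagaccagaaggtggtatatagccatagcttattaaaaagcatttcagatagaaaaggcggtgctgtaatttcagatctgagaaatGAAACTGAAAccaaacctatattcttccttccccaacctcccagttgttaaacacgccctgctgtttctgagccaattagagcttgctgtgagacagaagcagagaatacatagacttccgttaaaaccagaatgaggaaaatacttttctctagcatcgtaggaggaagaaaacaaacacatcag
GBP1, chr1:89065159-89065458, minus strand: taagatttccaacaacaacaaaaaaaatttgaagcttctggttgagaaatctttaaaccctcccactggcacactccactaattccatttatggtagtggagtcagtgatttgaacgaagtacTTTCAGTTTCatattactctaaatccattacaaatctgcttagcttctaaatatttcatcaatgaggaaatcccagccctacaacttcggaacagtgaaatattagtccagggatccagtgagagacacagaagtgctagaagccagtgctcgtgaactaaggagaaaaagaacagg
ISG15, chr1:1013247-1013546, plus strand: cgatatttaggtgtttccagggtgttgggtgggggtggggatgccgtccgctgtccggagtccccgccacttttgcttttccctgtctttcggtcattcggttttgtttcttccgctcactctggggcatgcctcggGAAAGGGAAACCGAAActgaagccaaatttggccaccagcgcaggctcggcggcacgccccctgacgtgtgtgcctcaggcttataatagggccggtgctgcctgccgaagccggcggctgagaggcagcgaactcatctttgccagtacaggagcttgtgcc
In CXCL10 the ISRE core began 221 bases before the start site, and matches to the NF-kB consensus began 177 and 122 bases before it. In GBP1 the core lay 127 bases before the start site on the opposite strand, in SAMD9 it lay 136 bases before it, and ISG15 held a pair of overlapping cores at 113 and 107 bases. The window of SAMD9L held no match, which says only that these letters are not in this window. Of the genes called lower in JJN3 (defined with the test below), 3 of 5 with a window held the core, and of those called higher 4 of 5.

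Total counts per library lay between 17476443 and 19194371, so the limit that a count of 0 allows, 3 counts, stood at 0.156 to 0.172 CPM (reads of a gene relative to the library total). Reads are not independent molecules here, so limits and intervals cover counting error only. The JJN3 libraries carried high MAF counts (8873 to 16840), the translocation target of that line, in all 4. FGFR3, the target of the translocation known in H929, counted 45 and 285 in the libraries labelled H929 DMSO and 14117 and 13411 in those labelled H929 THZ1, while MAF counted 18006 and 16310 against 2729 and 2942. The paper itself reports active MAF in H929 and, by qRT-PCR, lower MAF in both lines with THZ1 at a lower dose. The libraries under the H929 labels thus differ in genes that identify a line as well as in the treatment label, and what the cells and what THZ1 contributed cannot be told apart. Spread between the replicates of a group beyond counting error, as chi-square per degree of freedom, was 12.4 for JJN3 DMSO and 12.3 for JJN3 THZ1. It was 3.56 for H929 DMSO and 5.22 for H929 THZ1. In a set of genes high under the label H929 THZ1, however, H929 DMSO replicate 2 stood apart from replicate 1. Of 112 genes with at most 3 counts in replicate 1 and at least 500 in both H929 THZ1 libraries, 112 were above 3 counts in replicate 2, at a median of 2.01% of the H929 THZ1 level (quartiles 1.75% and 2.31%); these genes were picked after the values were seen. Of 10 plasma cell markers, 8 were counted at 232 or more in all 8 libraries (SDC1 812 to 31513 counts, XBP1 5594 to 41063), whereas CD27 stayed at 3 counts or fewer and SLAMF7 counted 2 and 174 with the label H929 DMSO against 8948 and 9173 with H929 THZ1. The 3 markers of plasmacytoid dendritic cells summed to at most 0.27 CPM, the 4 of monocytes and macrophages to at most 1.07 CPM, the 4 of B cells to at most 4.04 CPM and the 3 of fibroblasts to at most 4.49 CPM. The 4 markers of T and NK cells summed to 2.46 to 4.75 CPM in JJN3, to 7.36 and 7.76 CPM under the label H929 DMSO and to 35.3 and 35.8 CPM under H929 THZ1, where CD3E counted 640 and 650 and CD8A, at 121 and 108 with DMSO, was at 0; their part in the results under the H929 labels was not tested.

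**Figure D1:**
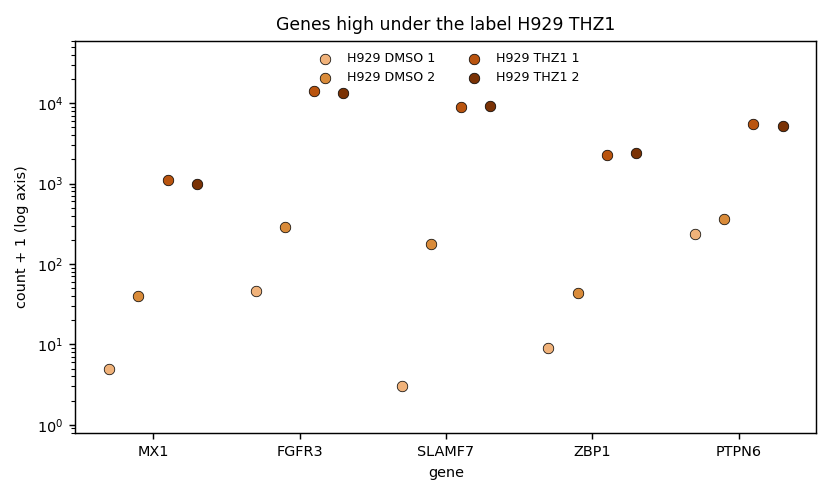
Counts plus 1, on a log axis, of 5 genes in the 4 libraries labelled H929, 1 point per library. Replicate 1 with DMSO was lowest for each of these 5, and replicate 2 with DMSO was above it (MX1 39 against 4, SLAMF7 174 against 2). Both libraries labelled THZ1 were far higher. Other genes higher under the THZ1 label did not show this order with DMSO. Replicate 2 was below replicate 1 for OAS2 (467 against 506), OAS1 (113 against 120), ISG20 (57 against 61) and STAT2 (545 against 596). RSAD2 was at 0 in both.

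The interferon genes themselves were at or under the limit. Of the 21 interferon genes counted (type I, IFNG and the lambda genes), 18 were at 0 in all 8 libraries, and IFNA5, IFNG and IFNL1 reached at most 3 counts. Expression below that limit is not detectable at this depth.

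The level of the list in JJN3 with DMSO came from a few genes. Per kilobase of the main transcript, BST2, which tethers budding virus to the cell surface, was highest at 225 CPM per kb ± 6.70 (SD, n = 2). SAMD9L, a restriction factor and brake on growth, followed at 60.2 ± 2.76, CXCL10 at 46.9 ± 3.43 and IFITM1, which blocks viral entry, at 23.5 ± 0.430. CXCL10 and SAMD9L were the closest of these neighbours and still did not overlap. At the other end, 9 of the 42 genes had at most 3 counts in both JJN3 DMSO libraries, among them OAS1, OAS2 and OAS3, enzymes that switch on an RNA-degrading nuclease, and MX2, a GTPase that traps viral capsids. Thus the OAS family was near the limit in JJN3 while the sensor IFIH1 (MDA5) counted 1351 and 1252.

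**Figure D2:**
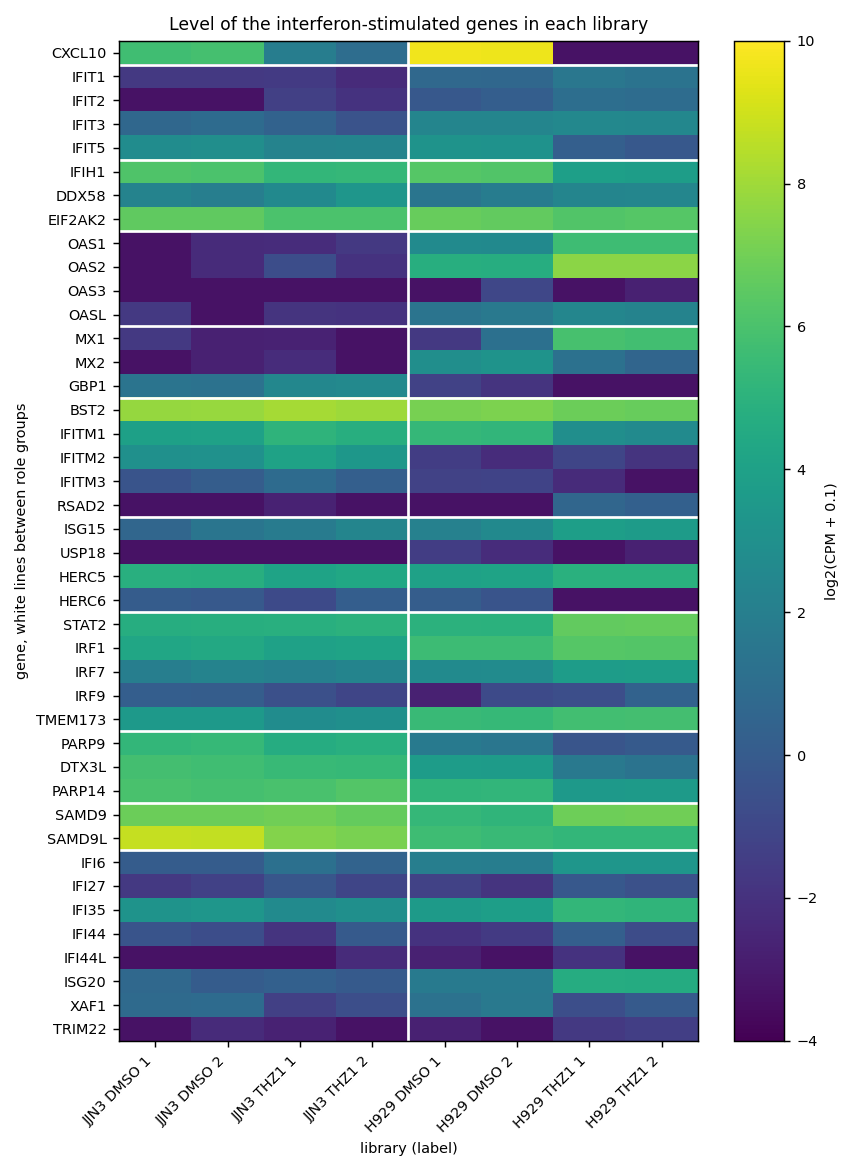
Level of the 42 genes (rows, by role group) in the 8 libraries (columns), as log2(CPM + 0.1) in colour. In JJN3 the OAS family, MX1, MX2, RSAD2 and USP18 stayed dark in all 4 libraries, whereas BST2, SAMD9L and EIF2AK2 were bright, and CXCL10 was brightest under the label H929 DMSO and dark under H929 THZ1.

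In JJN3, CXCL10 fell the most of the list with THZ1. DMSO-treated cells gave 1003 and 1106 counts and THZ1-treated cells 65 and 35, so the groups were far apart. The fitted change was -4.20 ± 0.20 (log2, SE), 18.3-fold lower. With each library left out in turn it ran from -4.78, without THZ1 replicate 1 (the library with 65 counts), to -3.75. CXCL9, which binds the same receptor, had 41 and 51 counts against 4 and 2, also without overlap. CXCL9, which is no member of the list, fell by 3.69 ± 0.47 on the log2 scale (adjusted p = 5.9e-05, edgeR quasi-likelihood fit, Benjamini-Hochberg). With each library left out in turn its log2 change ran from -4.32, without THZ1 replicate 1, to -3.22. CXCL11, the third ligand of their receptor CXCR3, had at most 2 counts in JJN3. CCL5, a chemokine outside this trio, went the other way: it rose from 44 and 57 counts to 170 and 137, by 1.80 ± 0.23 (adjusted p = 5.97e-05, edgeR).

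**Figure D3:**
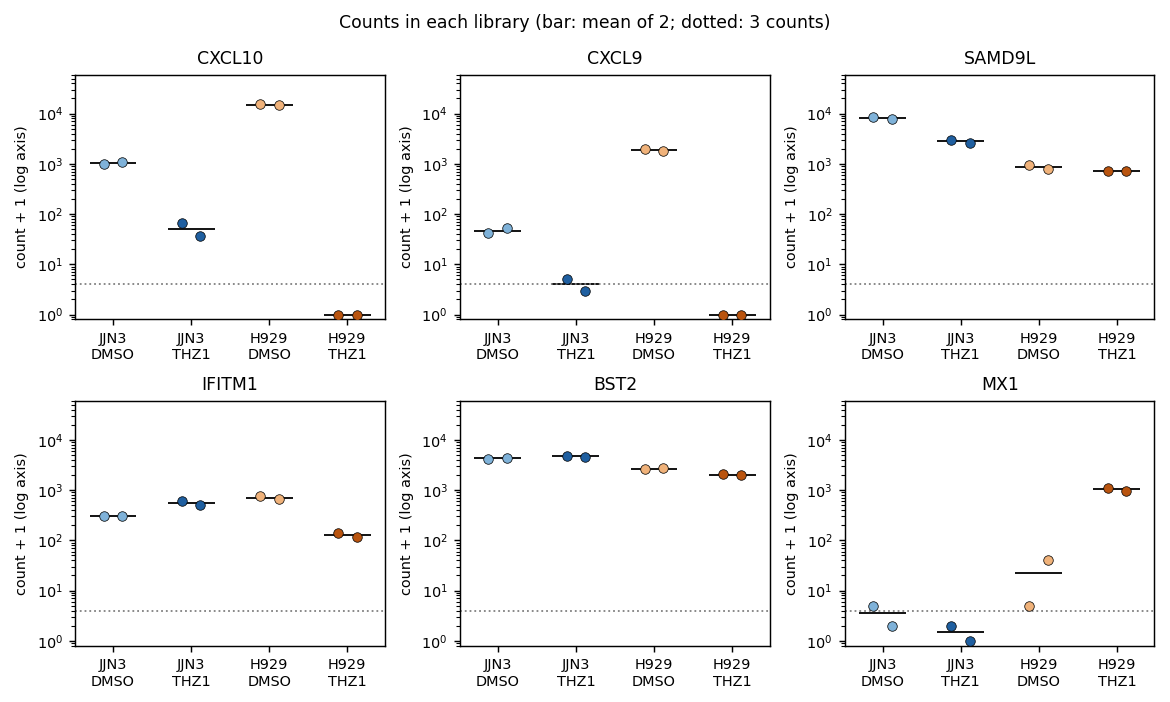
Counts plus 1, on log axes, of 6 genes in each library (points) with the mean of the 2 libraries of a group (bars), dotted line at 3 counts. CXCL10, CXCL9 and SAMD9L were lower in JJN3 with THZ1 than with DMSO, IFITM1 was higher, BST2 moved little, and MX1 was near the limit in JJN3 and at 1109 and 977 counts under the label H929 THZ1.

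As bulk RNA was measured, fewer cells with a transcript and less of it per cell cannot be told apart, for CXCL10 as for every gene here. Of the 42 genes, 29 passed the filter on low counts in JJN3. The study's own limits were kept: a gene was called in the edgeR fit over 13984 genes where its adjusted p was under 0.05 and its absolute log2 fold change above 0.5. By this rule 6 of the 29 were called lower (20.7%), beside 21.3% of all genes tested. CXCL10 is counted among the 6, but its fall was known when the list was chosen, so its call is no test. The other calls likewise describe a list chosen with these results known. Another 6 were called higher (20.7%), beside 20.6% of all genes, and 17 were not called. The shares of the list matched those of all genes, so nothing is read from them about the list. Over the 29 the median change was -0.19 (log2), against 0.00 over all genes. The 13 genes that did not pass were IFIT1, IFIT2, OAS1, OAS2, OAS3, OASL, MX1, MX2, RSAD2, USP18, IFI27, IFI44L and TRIM22, which reached at most 13 counts in any JJN3 library.

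**Figure D4:**
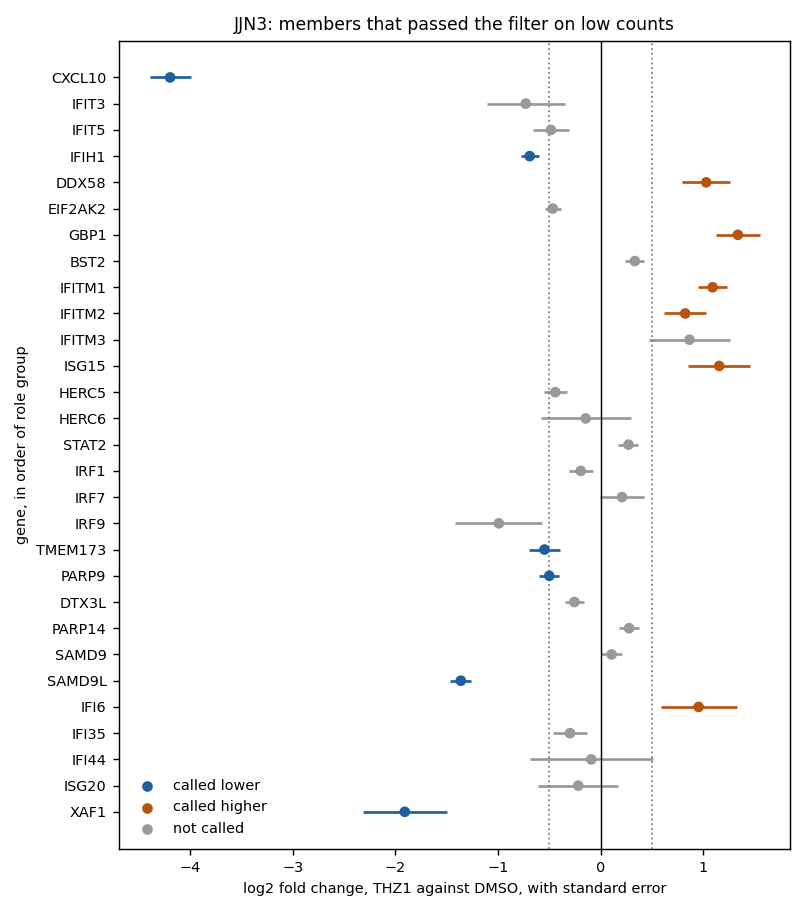
Log2 fold change with THZ1 against DMSO in JJN3, with its standard error, for the 29 genes that passed the filter, in order of role group. Dotted lines mark the fold limit of 0.5; blue and orange points are the 6 genes called lower and the 6 called higher, CXCL10 stands alone at -4.20, and the rest lie between -1.91 and 1.34.

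Among the genes called lower besides CXCL10, SAMD9L carried the most RNA. SAMD9L counted 8526 and 7944 with DMSO and 2929 and 2652 with THZ1, a change of -1.36 ± 0.10 on the log2 scale or 2.57-fold (adjusted p = 2.22e-06, edgeR). SAMD9, its close relative, lies 12032 bases away on chromosome 7 on the same strand (hg19). SAMD9 counted 2190 and 2184 with DMSO and 2170 and 1935 with THZ1, and its fitted change was 0.11 ± 0.10 (adjusted p = 0.369, edgeR), which turned to -0.05 without THZ1 replicate 1. The groups of SAMD9L did not overlap, whereas the counts of SAMD9 were alike; the difference between these genes was not itself tested. XAF1, which opposes the apoptosis inhibitor XIAP, counted 32 and 33 against 5 and 10, and its change was -1.91 ± 0.41 (adjusted p = 0.00203, edgeR). All 4 values of XAF1 were low, but its groups did not overlap.

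The RNA sensors moved in both directions. IFIH1 counted 1351 and 1252 with DMSO and 664 and 747 with THZ1, a change of -0.69 ± 0.09 (adjusted p = 5.14e-05, edgeR). DDX58 (RIG-I), which senses RNA ends, counted 91 and 74 with DMSO and 109 and 188 with THZ1, a change of 1.03 ± 0.24 (adjusted p = 0.00309, edgeR). The fall of IFIH1 was seen in both THZ1 libraries at a like size, while the DDX58 counts with THZ1 were themselves far apart. EIF2AK2, the kinase PKR that stops translation, changed by -0.47 ± 0.08 (adjusted p = 0.000388, edgeR) and so lay just inside the fold limit, uncalled. PARP9, which pairs with the ubiquitin ligase DTX3L, lay just beyond the limit. PARP9 counted 745 and 806 against 444 and 516, a change of -0.50 ± 0.10 (adjusted p = 0.00105, edgeR), and it fell short of the fold limit with a filter of 1 CPM in 2 libraries (-0.48) and without DMSO replicate 2 or THZ1 replicate 1. DTX3L (-0.26) and PARP14 (0.28) were not called. PARP9 and DTX3L lie on opposite strands and overlap over 240 bases. Whether counting used the strand is not given in the sources used here, so how reads from the overlap were counted is uncertain.

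The genes called higher were led by GBP1, a GTPase that coats pathogens. GBP1 counted 48 and 44 with DMSO and 96 and 108 with THZ1, a rise of 1.34 ± 0.22 or 2.53-fold (adjusted p = 0.000302, edgeR). ISG15, a ubiquitin-like modifier, counted 28 and 50 against 61 and 92, a rise of 1.16 ± 0.30 (adjusted p = 0.0067, edgeR). The groups of GBP1 were far apart, while the ISG15 replicates differed widely within each group, and ISG15 lost its call without DMSO replicate 1 (0.79, adjusted p = 0.0652, edgeR). IFITM1 counted 298 and 304 with DMSO and 611 and 507 with THZ1, a rise of 1.09 ± 0.14 (adjusted p = 5.6e-05, edgeR). IFITM2, which lies 643 bases from it, counted 153 and 160 against 287 and 195, a rise of 0.83 ± 0.21 (adjusted p = 0.00507, edgeR), which fell short of the fold limit without THZ1 replicate 1 (0.44). Reads that fit several places were left out, so counts of the near-identical IFITM genes are uncertain. IFITM3, the third of them, changed by 0.87 ± 0.40 at 13 to 31 counts and was not called, except without THZ1 replicate 2 (1.21, adjusted p = 0.0253, edgeR). IFI6, a mitochondrial and reticulum protein that opposes flaviviruses, counted 18 and 18 against 37 and 24, a change of 0.96 ± 0.37 (adjusted p = 0.0442, edgeR). That call is the weakest of the list, as it was lost in DESeq2 (adjusted p = 0.257) and without DMSO replicate 1, DMSO replicate 2 or THZ1 replicate 1. BST2, the highest gene per kilobase, counted 4225 and 4381 with DMSO and 4867 and 4596 with THZ1, a change of 0.33 ± 0.09 that stayed under the fold limit (adjusted p = 0.00868, edgeR).

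The factors that carry the signal to these genes were mostly not called in JJN3. STAT2 counted 508 and 519 with DMSO and 505 and 581 with THZ1 (change 0.27 ± 0.10, adjusted p = 0.0321, edgeR). IRF1, which drives CXCL10 and GBP genes, counted 368 and 409 against 276 and 319, and its change was -0.19 ± 0.12 (adjusted p = 0.177, edgeR). The groups of IRF1 did not overlap as counts or as CPM (19.2 and 21.4 with DMSO, 15.8 and 17.3 with THZ1), but the change did not pass the test. IRF7, which amplifies type I interferon, counted 73 and 88 against 74 and 89 (0.21 ± 0.21, adjusted p = 0.415, edgeR). IRF9, the DNA-binding part of the complex with STAT2, counted 20 and 19 against 10 and 7, and its change of -0.99 ± 0.42 was not called (adjusted p = 0.0637, edgeR), though it was with total counts as the scale (adjusted p = 0.042). TMEM173 (STING), the adaptor of DNA sensing, counted 216 and 226 against 119 and 146. The groups of TMEM173 were apart, and its change of -0.55 ± 0.15 was called (adjusted p = 0.00848, edgeR) but not in DESeq2 (adjusted p = 0.0551), nor without DMSO replicate 2 or THZ1 replicate 1. The remaining genes tested and not called in JJN3 were IFIT3 (-0.73), IFIT5 (-0.48), HERC5 (-0.44), HERC6 (-0.14), IFI35 (-0.30), IFI44 (-0.09) and ISG20 (-0.22, all log2 changes). IFIT3 was called only without THZ1 replicate 1 (-1.26, adjusted p = 0.0311, edgeR), and IFIT5 lay so near the limit that another scaling called it. USP18, which removes ISG15 and dampens the receptor, was at 0 in all 4 JJN3 libraries, so no fold is given.

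Of 68 other pathway genes, 38 were tested in JJN3, of which 6 were called lower (15.8%) and 8 higher (21.1%), beside 21.3% and 20.6% of all genes. JAK1, the kinase shared by all interferon receptors, counted 4724 and 4599 with DMSO and 9381 and 9664 with THZ1, a rise of 1.23 ± 0.09 (adjusted p = 1.5e-06, edgeR). Among receptor chains, IFNLR1 rose by 1.46 ± 0.20 and IL10RB fell by 1.31 ± 0.24, the 2 chains that together bind interferon lambda (adjusted p = 0.000114 and 0.00066, edgeR). IFNGR1, of the interferon gamma receptor, was also called higher (633 and 586 counts with DMSO, 794 and 806 with THZ1), but not with total counts as the scale. Neither chain of the type I receptor was called (IFNAR1 0.07 and IFNAR2 0.38). IKBKE, a kinase that activates IRF3, fell by 1.23 ± 0.14 and MB21D1 (cGAS), the DNA sensor upstream of STING, by 0.66 ± 0.10 (adjusted p = 2.67e-05 and 0.000174, edgeR). ZBP1, listed with them under sensing and induction, was called higher (57 and 45 counts with DMSO, 72 and 88 with THZ1). That call was lost in DESeq2 and without DMSO replicate 2. Of the negative regulators, SOCS3 rose by 0.90 ± 0.12 and PTPN6 by 0.90 ± 0.25 (adjusted p = 6.64e-05 and 0.00864, edgeR), PTPN6 losing its call without THZ1 replicate 2. STAT3 rose by 0.80 ± 0.08 (adjusted p = 1.27e-05, edgeR).

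Before any THZ1, the libraries labelled H929 DMSO held a different set of these genes from JJN3. In a fit of all 8 libraries, 38 of the 42 were tested, of which 11 were lower (28.9%) and 17 higher (44.7%) than in JJN3 DMSO, beside 30.7% and 30.8% of all 16122 genes. CXCL10 was the highest of the list there, at 15764 and 14526 counts against 1003 and 1106 in JJN3. OAS2 counted 506 and 467 against 0 and 2, a ratio of 506 (95% exact interval 140 to 4180), and OAS1 120 and 113 against 0 and 2 (ratio 121, interval 33.2 to 1010). MX2 counted 138 and 161 against 0 and 1 (ratio 311, interval 55.4 to 12300). OAS1, OAS2 and MX2, at or under the limit in JJN3, were thus present under this label, whereas OAS3, at 0 and 7 counts, was too low to test. SAMD9L went the other way, with 938 and 806 counts, and differed by -3.16 ± 0.10 on the log2 scale (adjusted p = 9.72e-14, edgeR). PARP9 differed by -3.74 ± 0.13 (adjusted p = 4.03e-13) and IFITM2 by -5.35 ± 0.43 (adjusted p = 8.93e-09, both edgeR), with IFITM2 at 5 and 2 counts. DTX3L, at 252 and 234 counts against 1083 and 978, was also called lower (adjusted p = 3.55e-11, edgeR). TMEM173 was higher by 1.93 ± 0.10 and IRF1 by 1.28 ± 0.09 (adjusted p = 2.68e-11 and 1.03e-09, edgeR). MX1 (4 and 39 counts against 4 and 1) was called higher with all libraries, but its difference was 0.71 without H929 DMSO replicate 2 (adjusted p = 0.535, edgeR), and it also missed the threshold without JJN3 DMSO replicate 2 (2.46, adjusted p = 0.0569, edgeR).

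**Figure D5:**
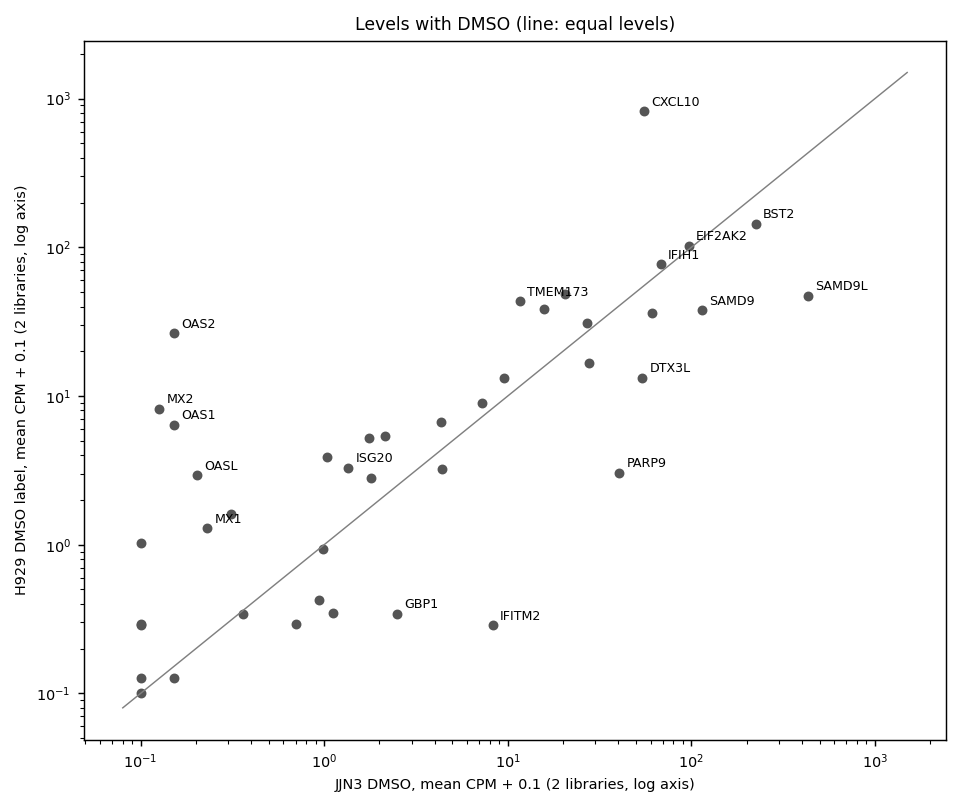
Mean level with DMSO of the 42 genes, as CPM plus 0.1 on log axes, in JJN3 (x axis) and under the label H929 DMSO (y axis), means of 2 libraries each, with a line of equal levels. OAS1, OAS2, MX2 and CXCL10 lie above the line, while SAMD9L, PARP9, DTX3L and IFITM2 lie below it.

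Between the H929 labels, CXCL10 was counted 15764 and 14526 times under DMSO and at 0 in both THZ1 libraries, at least 5040-fold lower with 3 counts per library as the limit. CXCL9, at 1969 and 1817 counts, was likewise at 0 in both, at least 629-fold lower. The libraries of this comparison also differ in genes that identify a line, as described above. Of the 42 genes 33 were tested, of which 10 were lower (30.3%) beside 32.6% of all genes, and 18 higher (54.5%) beside 33.1%. The 3 OAS genes that could be tested were all higher: OAS1 counted 120 and 113 against 942 and 910, and OAS2 506 and 467 against 3505 and 3426. OAS1 was higher by 2.94 ± 0.10, OAS2 by 2.79 ± 0.06 and OASL by 0.78 ± 0.20 (adjusted p = 2.31e-13, 2.44e-15 and 0.00219, edgeR), and OAS3 was too low to test. MX1 counted 4 and 39 against 1109 and 977, a difference of 5.55 ± 0.26 (adjusted p = 1e-11, edgeR), which was 7.97 without H929 DMSO replicate 2 and 4.66 without replicate 1. MX2 differed by -2.22 ± 0.22 (adjusted p = 1.52e-07, edgeR). STAT2, at 596 and 545 against 1831 and 1857, was higher by 1.65 ± 0.07, IRF1 by 0.65 ± 0.07 and IRF7 by 0.97 ± 0.13 (adjusted p = 2.25e-12, 1.5e-07 and 4.7e-06, edgeR). PARP9, DTX3L and PARP14 were all called lower, at -1.95, -2.31 and -1.67 (adjusted p = 1.62e-05, 2.14e-09 and 1.32e-10, edgeR). Of the SAMD9 pair, SAMD9 was called here and SAMD9L was not, and the difference between the genes was not tested. SAMD9 counted 746 and 642 against 2199 and 2321 (1.66 ± 0.07, adjusted p = 3.36e-12, edgeR), while SAMD9L, at 938 and 806 against 705 and 710, was not called (-0.35 ± 0.08). RSAD2 (viperin), which makes an antiviral nucleotide, was at 0 and 0 against 26 and 21 counts, at least 7.84-fold higher. The remaining genes called higher were IFIT1, IFIT2, DDX58, ISG15, HERC5, IFI6, IFI27, IFI35 and ISG20, and the remaining ones called lower were IFIT5, IFIH1, IFITM1, HERC6 and XAF1. The calls of IFIT1, IFIT2, DDX58 and IFI27, each at 95 counts or fewer, were lost in DESeq2, and also without H929 DMSO replicate 1 (all but IFI27), DMSO replicate 2 (IFIT1 and IFI27) or THZ1 replicate 1 (all but DDX58). Of the other pathway genes, 43 were tested, of which 16 were lower (37.2%) and 13 higher (30.2%). GBP1 went from 6 and 3 counts to 0 and 0 and HERC6, a ligase that attaches ISG15 in mice, from 19 and 12 to 0 and 0, the latter at least 5.13-fold lower. Without H929 DMSO replicate 2 the list held 11 lower and 17 higher calls.

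With THZ1 in both, the libraries labelled H929 were again unlike JJN3, with 14 of 38 genes lower (36.8%) beside 32.3% of all genes and 18 higher (47.4%) beside 31.6%. OAS1 counted 942 and 910 against 2 and 4, a difference of 8.07 ± 0.23 (adjusted p = 5.05e-14, edgeR). CXCL10 was at 0 and 0 against 65 and 35, at least 17.2-fold lower. The difference between the contrasts of the lines was called lower for 12 of 38 genes (31.6%) and higher for 11 (28.9%), beside 25.5% and 28.1% of all genes. The largest called differences were those of CXCL10, MX1, HERC6 and GBP1, each with a group at or under 3 counts, so only their counts are given. That of CXCL10 is built from contrasts known when the list was chosen and is a description. Both contrasts of CXCL10 were downward, whereas IFITM1, higher in JJN3 with THZ1, counted 750 and 656 with DMSO against 137 and 117 with THZ1 under the H929 labels.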

How the data were processed

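RNA-seq counts of 8 libraries were analysed. Reads had been aligned by the authors to hg19 using STAR (2.5.2a in the submitters' processing notes), those with a single place were kept, and the deposited values are raw counts per Ensembl gene made with featureCounts. The deposited tables of the authors' DESeq2 comparisons hold mean signals, fold changes and p-values; none was used, and only the gene symbols of the JJN3 table were taken. Counts were compared with edgeR 4.0.16 in R 4.3.3 (TMM scaling, filterByExpr, quasi-likelihood test, Benjamini-Hochberg adjustment over all genes tested), within each line, and over all 8 libraries for differences between lines. Calls needed an adjusted p under 0.05 and a log2 fold change beyond 0.5. Alternatives were DESeq2 1.42.0, its size factors or total counts, other filters and fold limits, 1 fit for all libraries, the replicate number as a block, and each library left out. The tests were tried on simulated data. Members, gene lists and alternatives were chosen with earlier results of these data known. Values per library were given for CXCL10, the 6 largest falls and rises called in JJN3, the 4 highest members, the 4 largest differences between contrasts, and the regulators; chemokines and pathway genes were named from lists, and further members were named after their values were seen. Per-kilobase levels used the main transcript of the GENCODE annotation for GRCh37. A pathway gene is not reported here.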

Additional observations from a re-analysis of the deposited data

Results flagged for a closer look

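The THZ1 against DMSO contrast under the H929 labels differed from that in JJN3 for 17 of 27 members, by the test of the difference itself in edgeR. These 27 had at least 1 library above 3 counts in each of the 4 groups. Over all 16122 genes, to which this limit was not applied, the difference was called lower for 25.5% and higher for 28.1%. Over the 38 members tested without this limit the shares were 31.6% and 28.9%. All these differences rest on the libraries labelled H929, whose DMSO and THZ1 pairs differ in line-defining genes, so cells and treatment cannot be told apart. The log2 difference (H929-labelled minus JJN3) was negative for 7 members, namely IFITM1 (-3.60), IFIT5 (-2.76), DTX3L (-2.04), PARP14 (-1.94), IFIH1 (-1.76), PARP9 (-1.44) and BST2 (-0.75). It was positive for 10, namely IRF7 (0.77), IRF1 (0.85), TMEM173 (0.86), SAMD9L (1.03), HERC5 (1.22), STAT2 (1.38), SAMD9 (1.56), IFI35 (1.75), IRF9 (2.76) and ISG20 (3.13). Adjusted p-values (edgeR, Benjamini-Hochberg) ran from 1.76e-10 for IFITM1 to 0.0105 for IRF9. The 4 transcription factors STAT2, IRF1, IRF7 and IRF9 and TMEM173 (STING) were among the positive differences, beside the 28.1% of all genes called higher. IRF9, at 1 to 22 counts, lost its call in DESeq2 (adjusted p = 0.0672), without H929 DMSO replicate 1 (1.94, adjusted p = 0.0613) and without H929 THZ1 replicate 2 (2.10, adjusted p = 0.104), and reached 4.85 without H929 DMSO replicate 2. IRF7 lost its call in DESeq2 (adjusted p = 0.0632) and without JJN3 DMSO replicate 2 (0.66, adjusted p = 0.0506). The other 15 kept their calls under the alternative tools, scalings, filters and left-out libraries. With a log2 fold limit of 1, BST2, IRF1, TMEM173 and IRF7 are no longer called.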

How the results depend on the processing

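In JJN3, 10 members were called lower in place of 6 with total counts as the scale and with the adjusted p alone, and 3 with a log2 fold limit of 1. Total counts put the median log2 fold change of all genes in JJN3 at -0.10, so changes there are relative to that shift, and the median of the difference between contrasts at 0.18. With the adjusted p alone, 13 other pathway genes were lower in place of 6; with a limit of 1, 3 were higher in place of 8, and under the H929 labels 11 members were higher in place of 18. The other counts of calls stayed within 1.5 times under the alternatives that keep all libraries. Leaving out each library in turn gave 4 to 7 members lower and 4 to 8 higher in JJN3, 9 to 11 and 15 to 19 under the H929 labels, and 10 to 12 in each direction for the difference between contrasts. Uncalled changes in JJN3 that turned sign with a library left out were SAMD9 (-0.051 to 0.25), HERC6 (-0.82 to 0.28), IFI44 (-1.64 to 0.60) and ISG20 (-0.56 to 0.19), and IFNAR1 turned with total counts (-0.037). Total counts added IFIT5, EIF2AK2, HERC5 and IRF9 to the calls. With the replicate number as a block, JJN3 kept 6 lower and 6 higher calls, the H929 labels 10 and 18, and the difference 11 and 11. Deviations of same-numbered libraries were hardly correlated over genes (0.0096 and -0.0115). Counting error in low genes weakens such a correlation, so it cannot decide whether the numbers pair libraries. Where a setting changed a call, the cause was not tested. Genes under about 10 counts, such as MX1 in JJN3, are limited by depth.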
